A study of Mus musculus with 14 samples.

Results

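Wild-type common myeloid progenitors (CMP) were compared with the wild-type LSK population, the stem and multipotent progenitor fraction of mouse bone marrow. The arrays were chosen by title: the 2 WT CMP arrays were set against the 2 WT LSK arrays, so the comparison used 4 of the 14 arrays of the series. Both populations were sorted as lineage negative and c-Kit positive. LSK cells also carried Sca1, whereas CMP lacked Sca1, had a low level of Fc gamma receptor and carried CD34. Both came from littermates on a B6/129 background whose genotype the protocol writes as Tet2+/+ Mx+, sorted 4 weeks after deletion by injection of pIC, a synthetic double-stranded RNA that activates the interferon-inducible Mx promoter. As the protocol is worded, the wild-type controls share the Mx allele and the pIC injection. The same step in the KO (Tet-/-Mx+ littermates, same strain, treatment and time) is given beside it. So are the 2 arrays of wild-type granulocyte-macrophage progenitors (GMP, Sca1 negative, high Fc gamma receptor, CD34 positive). For the GMP arrays the labels give no time after deletion, so orders of LSK, CMP and GMP may not be matched in time. Each array started from 5 ng of amplified total RNA. The labels name no animals and no age, so the p-values measure the spread between arrays, which may be technical.

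In the classical scheme of blood formation, LSK cells hold the self-renewing stem cells and early progenitors, some of which already transcribe lymphoid genes at a low level. CMP are defined as progenitors that make granulocytes, monocytes, red cells and platelets. The granulocyte and monocyte branch passes through GMP, where the enzymes of the primary granules are made in quantity.

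Levels are the authors' RMA intensities on a linear scale, and differences are log2 differences of CMP minus LSK. The fit was limma over all 14 arrays, with adjusted p taken over all 45037 probe sets and a threshold of 0.05. Each gene is represented by its brightest probe set. The floor of an array, its highest bacterial control signal, lay between 20.8 and 27.8. Where both arrays of the dimmer group were no brighter than the floor, the fold is a lower bound and is written as at least that value. Array medians lay between 31.1 and 33.0, and from 52.6% to 58.3% of probe sets were above the floor. The 2 WT LSK arrays resembled each other less than the 2 WT CMP arrays did. Over all genes they correlated at r = 0.966, within the range of 0.960 to 0.970 for an LSK array with a CMP array, while the WT CMP pair reached 0.982. Between the WT LSK arrays 2011 genes differed more than 2-fold, against 897 between the WT CMP arrays. Gene correlations are a description here, since genes are not independent replicates.

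The sort markers that the arrays measured were compared first. Kit, which encodes the c-Kit receptor, read 2600 and 1847 in LSK and 2061 and 2046 in CMP, and the groups overlapped (adjusted p = 0.959, limma). Cd34 read 5367 and 4920 in LSK and 4983 and 4921 in CMP, again overlapping (adjusted p = 0.974, limma). Among the Fc gamma receptor genes, Fcgr3 read 386 and 571 in LSK, 667 and 634 in CMP, and 5002 and 4297 in GMP. The CMP arrays thus lay close to LSK and far below GMP, as the low and high gates describe, and the step did not pass the test (0.47 ± 0.22, SE, n = 2 arrays a group, adjusted p = 0.536, limma). Fcgr2b, the inhibitory Fc gamma receptor, rose 2.64-fold, from 359 and 310 to 822 and 938 (adjusted p = 0.0238, limma). Its call was lost without any 1 of the 4 wild-type arrays compared (adjusted p up to 0.141). The Sca1 gene was not analysed here. Among the stem cell and CMP markers used for this check, Hlf and Procr were far lower in CMP and Mpo higher, while Slamf1 read 113 and 183 in LSK and 120 and 200 in CMP. Tet2 itself, as a check of the genotype labels, read 829 and 454 in WT LSK and 1225 and 1287 in WT CMP. The KO arrays read 855 and 1859 in LSK and 2011 and 1943 in CMP, not lower than wild type. Where its probes lie relative to the deleted part was not analysed here, so this probe set does not check the labels.

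From LSK to CMP the largest falls included B-lineage and antibody genes, and the rises included granulocyte and monocyte genes. Of 18193 genes, 206 (1.13%) passed the threshold: 62 (0.341%) were higher in CMP and 144 (0.792%) were lower. By probe set, 367 of 45037 (0.815%) passed, 119 up (0.264%) and 248 down (0.551%). The falls were steeper than the rises: 31 of the 144 lower genes lay below -4 on the log2 scale, and the largest fall was -8.78, while the largest rise was 3.29. The count of 31 includes signals under the floor, and for some of these genes the bound is smaller. Gbp8, at -4.73, was at least 5.27-fold lower, and Sema3d, at -5.28, at least 11.4-fold. Of the lower genes, 49 were at or below the floor on both CMP arrays. Of the higher genes, 6 were at or below it on both LSK arrays, and 3 of all called genes were at or below it in both groups. Of all 18193 genes 10098 were higher in CMP and 8095 lower, and the median was 0.03. With signals under the floor raised to it, that median was 0.17. Groups that do not overlap are common with 2 arrays each: 7413 genes (40.7%) had none, 4204 (23.1%) higher and 3209 (17.6%) lower in CMP. Of the 206 genes, 36 passed whichever of the 14 arrays was left out, 5 higher and 31 lower. Without the second WT CMP array, 8 of the 62 and 38 of the 144 still passed, and without the first, 12 and 60. Without the first WT LSK array 26 and 80 still passed, and without the second 47 and 116. Leaving out either replated KO array, which enters only the shared spread, left 26 and 82. Losses from arrays outside the 4 compared are not repeated gene by gene. Of 41 named genes that did not pass, 10 passed with some array left out.

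**Figure D1:**
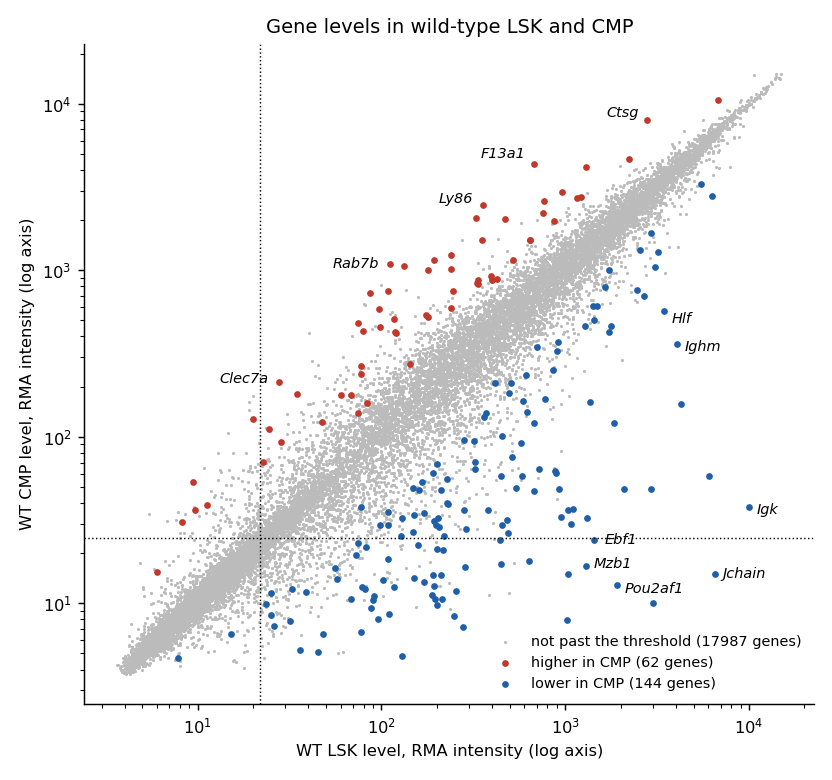
Mean level of every gene in WT LSK (x axis) and WT CMP (y axis), as RMA intensity on log axes, each the geometric mean of 2 arrays, with dotted lines at the mean floor of each group. The 62 genes higher in CMP (red) lie nearer the diagonal than many of the 144 lower genes (blue), of which Jchain and Pou2af1 lie below the CMP floor.

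By count, genes of early lymphoid priming had more members that fell than any other list, while the shorter plasma cell list had 5 of 9. Of 25 measured members 11 fell and none rose, while 0.792% of all genes fell. In CMP 24 members were lower, 22 of them without overlap, as were 17.6% of all genes. The median was -1.86 against 0.03 over all genes. Rag1, a subunit of the enzyme that cuts DNA during V(D)J recombination, read 989 and 1084 in LSK and 13.4 and 16.7 in CMP. Both CMP arrays were below the floor, so the fall was at least 42.4-fold (-6.11 ± 0.66, adjusted p = 0.0057, limma). Its partner Rag2 fell 3.97-fold, from 110 and 151 to 31.4 and 33.3. Igll1, part of the surrogate light chain of the pre-B cell receptor, read 2312 and 3689 in LSK and 54.6 and 43.5 in CMP, with no overlap and a 59.9-fold fall (-5.90 ± 0.45, adjusted p = 0.000793, limma). Vpreb1, the other part of the surrogate light chain, read 1695 and 3423 in LSK and 403 and 1086 in CMP and did not pass (adjusted p = 0.455). Ebf1, a transcription factor that specifies the B lineage, read 1351 and 1506 in LSK and 13.9 and 41.5 in CMP. The CMP arrays lay far below LSK, the first under its floor, and the fitted fall was 59.5-fold (adjusted p = 0.00162, limma).

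Signalling and surface genes of the B lineage followed. Blnk, the adaptor that links the B cell receptor to its downstream kinases, read 223 and 180 in LSK and 10.1 and 9.5 in CMP, below the floor, a fall of at least 8.22-fold (adjusted p = 0.00416, limma). Cd79a, a signalling chain of the B cell receptor, fell 8.57-fold, from 190 and 251 to 27 and 24.1, the latter under its floor. Ly6d, a surface marker of B-committed lymphoid progenitors, fell 7.17-fold, from 162 and 258 to 27.9 and 29.2. In each of these the LSK and CMP arrays lay well apart. Ighm, the mu heavy chain locus, which is transcribed before rearrangement, fell 11.2-fold, from 3728 and 4437 to 436 and 301 (-3.49 ± 0.33, adjusted p = 0.0029, limma). When the probe sets of Ighm were averaged its difference was -0.69 and its call was lost (adjusted p = 0.0549). Lef1, a transcription factor of the Wnt pathway used in early lymphoid cells, fell 43.4-fold, from 2123 and 2068 to 56.1 and 41.5. Its call was lost without the first or the second WT CMP array (adjusted p = 0.0537 and 0.0877). Lef1 stood outside the list, of which Ltb, Ccr7 and Il12a were the other members that fell.

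Other members of the list were lower without passing. Il7r, the receptor for interleukin 7 on which mouse B and T precursors depend, read 614 and 831 in LSK and 47.3 and 66.7 in CMP (-3.67 ± 0.80, adjusted p = 0.0981, limma). Dntt, which adds untemplated bases during receptor assembly, read 8398 and 7406 in LSK, 4726 and 3693 in CMP, and 460 and 102 in GMP. Flt3, a cytokine receptor of multipotent and lymphoid progenitors, read 2500 and 1745 in LSK and 1264 and 1160 in CMP (adjusted p = 0.348). All of these groups were apart, with LSK higher. Il7r and Flt3 had unadjusted p of 0.00135 and 0.0202 in limma and Dntt 0.124, and none passed after adjustment over all probe sets. Ikzf1 and Mef2c, regulators used in lymphoid and myeloid progenitors alike, were at -0.06 and -0.18. The summed intensity of the list was 43550 and 43690 in LSK, 22520 and 22280 in CMP, and 13010 and 11920 in GMP. The count of 11 became 7 without the first or the second WT CMP array and 8 without the first WT LSK array.

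The promoter of Blnk is printed because it is the lymphoid gene that fell whose window holds the octamer ATGCAAAT, the site of the Oct factors with which the product of Pou2af1 works. Among the other genes past the threshold, Gcnt2, which fell, and Tent5a, which rose, held it too. The sequence is RefSeq's (GRCm38.p6) for the 250 bases before its start, chr19:40994222-40994471 on the minus strand, 5′ to 3′, with the octamer, here on the opposite strand at -130, in capitals.
Blnk: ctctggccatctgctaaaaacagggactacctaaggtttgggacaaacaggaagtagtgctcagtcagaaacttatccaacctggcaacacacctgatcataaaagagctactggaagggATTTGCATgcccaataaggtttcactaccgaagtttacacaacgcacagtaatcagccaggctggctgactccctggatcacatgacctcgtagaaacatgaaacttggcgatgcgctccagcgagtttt
The promoter table held 104 of the 144 lower genes, 43 of the 62 higher genes and 14452 of all measured genes. Searched on both strands, the octamer was in 2 of 104 promoters of lower genes (1.92%), in 1 of 43 of higher genes (2.33%) and in 227 of 14452 promoters of all measured genes (1.57%). The palindromic motif of Ebf1, given here by name alone, was in 4 of the 104 (3.85%), in 0 of the 43 and in 162 of all (1.12%). The genes that held them were Cd82, Gimap6, Ppp1r16b and Sdc4. A match describes these letters and is not a measured site.

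Genes used by antibody-secreting cells included the largest fall of the step. Of 9 measured members of the plasma cell list 5 fell and none rose, while 0.792% of all genes fell. The list median was -1.78. Jchain, which joins secreted IgM and IgA into polymers, read 6461 and 6628 in LSK and 16.2 and 13.7 in CMP. Both CMP arrays were below the floor, and the fall was at least 268-fold (-8.78 ± 1.09, adjusted p = 0.0107, limma). Pou2af1, the B cell coactivator of the Oct factors, read 1766 and 2087 in LSK and 9.01 and 18.2 in CMP, a fall of at least 78.7-fold (-7.23 ± 0.47, adjusted p = 0.000478, limma). Mzb1, a chaperone of the endoplasmic reticulum that aids antibody assembly, read 1208 and 1380 in LSK and 17.2 and 16.5 in CMP, a fall of at least 52.9-fold (adjusted p = 3.55e-05, limma). In all 3 the LSK arrays were high and alike and the CMP arrays were at background. Irf4, a factor needed for plasma cell formation, fell from 1554 and 750 to 32.7 and 27.3, and Sdc1, the surface proteoglycan CD138, from 2425 and 2520 to 883 and 652. Sdc1 thus stayed well above the floor in CMP. The calls of Pou2af1 and Mzb1 held whichever array was left out. That of Jchain was lost without the second WT CMP array (adjusted p = 0.066) and that of Sdc1 likewise (0.0956), while Irf4 reached 0.17 without the second WT CMP array. The list's count became 2 without that array.

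Immunoglobulin light chain genes were among the largest falls. The probe set of Igk, the kappa light chain locus, read 9654 and 10236 in LSK and 33.2 and 43.7 in CMP, a 261-fold fall (adjusted p = 0.0178, limma). The variable segment Igkv15-103 read 3333 and 2692 in LSK and 9.93 and 10.2 in CMP, at least 123-fold lower (adjusted p = 0.000277, limma). Igkv14-111 fell at least 42.1-fold, from 1127 and 936 to 8.3 and 7.52, and Igkv8-30 104-fold, from 6312 and 5797 to 59.7 and 56.5. For each of them the LSK arrays lay far above both CMP arrays. Segments of this family are near-identical in places and RNA of one can bind the probes of another, so the segment names are uncertain. The call of Igk was lost without the first WT LSK array or without the first or second WT CMP array (adjusted p = 0.0556, 0.0824 and 0.0933), and that of Igkv8-30 without any 1 of the same 3 (up to 0.116). Gpat3, an enzyme of triglyceride synthesis, was the other gene among the 12 largest falls and dropped 40.8-fold, from 1136 and 1535 to 34.6 and 30.3.

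Markers of mature cells that a sort can carry over were read beside these falls. The 9 plasma cell genes summed to 14020 and 13980 in LSK and to 1542 and 1338 in CMP. Prdm1 and Tnfrsf17, which define that cell type, were at or below the floor in both populations, and Xbp1, the secretory pathway factor, read 502 and 465 in LSK and 531 and 545 in CMP. The 12 mature B cell genes summed to 6402 and 7972 in LSK and 2283 and 2369 in CMP, of which Ighm and Cd79a fell. Of these 12, 7 were at or below the floor in both populations, among them Pax5, Ms4a1 and Cd22. The 17 mature T and NK cell genes summed to 989.4 and 1346 in LSK and 757.3 and 1139 in CMP, and none passed. Cd3d, Cd3g and Cd8b1 were at or below the floor in both. Thy1, also found on stem cells, read 117 and 282 in LSK and 36.6 and 30.6 in CMP (-2.44, adjusted p = 0.195), and Klrd1, a receptor chain of NK cells, 60.5 and 153 and then 35.6 and 35.6 (-1.43, adjusted p = 0.164). Klrd1 passed without the first WT LSK array (-2.10, adjusted p = 0.0105). In bulk samples fewer cells of a type and less RNA per cell cannot be told apart. Their part in the falls was not tested.

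**Figure D2:**
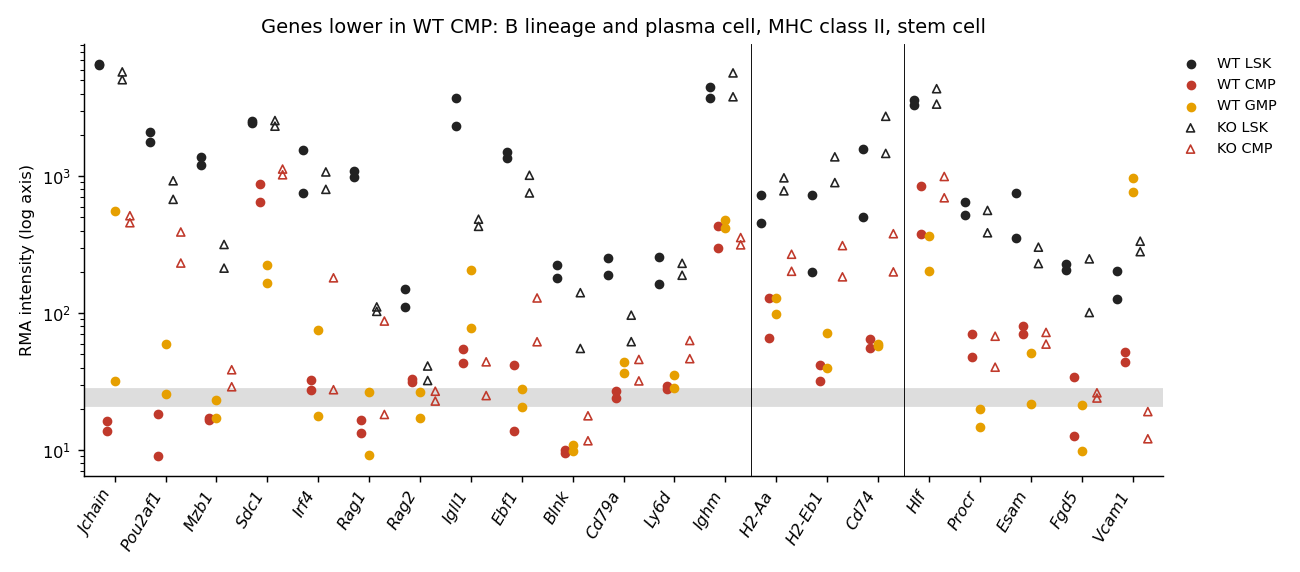
RMA intensity on a log axis of 21 genes that were lower in WT CMP, 1 point per array: WT LSK (black), WT CMP (red) and WT GMP (orange) as circles, KO LSK and KO CMP as triangles, with the grey band spanning the floors of all arrays. From left to right stand B lineage and plasma cell genes, MHC class II genes and stem cell genes; WT CMP points lie below WT LSK points for every gene, and for Jchain, Pou2af1, Mzb1, Rag1 and Blnk they lie under the band.

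Fewer stem cell genes fell. Of 22 measured surface and niche receptor genes of stem cells 4 fell, with a median of -0.54, while 0.792% of all genes fell. Of 30 stem cell transcription regulators 1 fell, with a median of -0.61. In CMP 21 of these 30 were lower, as were 8095 of all 18193 genes. Hlf, a bZIP transcription factor that marks stem cells, read 3587 and 3333 in LSK, 851 and 379 in CMP, and 204 and 368 in GMP. The LSK arrays were the highest, and the step was a 6.09-fold fall (-2.61 ± 0.42, adjusted p = 0.0281, limma). Procr, the protein C receptor used to sort stem cells, read 644 and 519 in LSK, 70.8 and 48.1 in CMP, and 14.7 and 19.8 in GMP, a 9.91-fold fall from LSK to CMP (-3.31 ± 0.47, adjusted p = 0.0182, limma). Its order was LSK, CMP, GMP with no overlap between the populations. Esam, an adhesion molecule of stem and endothelial cells, fell 6.79-fold from 747 and 351 to 81.2 and 70. Fgd5, a stem cell reporter locus, fell from 205 and 229 to 34.2 and 12.7. Vcam1, an adhesion molecule, fell 3.33-fold from 127 and 203 to 52.4 and 44.1 and read 969 and 772 in GMP.

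Several genes best known from stem cells differed without passing. Mecom, a zinc finger factor needed for stem cell maintenance, read 4255 and 2844 in LSK, 1122 and 835 in CMP, and 353 and 63.8 in GMP (-1.85 ± 0.64, adjusted p = 0.332, limma). Meis1, the cofactor of Hox proteins, read 516 and 456 in LSK and 210 and 194 in CMP (-1.27 ± 0.80, adjusted p = 0.705). In both the LSK arrays lay above the CMP arrays. Both passed without either WT GMP array (adjusted p = 0.037 and 0.0264), an omission that leaves the difference as it was and changes the shared spread. The count of stem cell regulators that fell was then 4, and over the 14 omissions it ran from 0 to 4. Of 18 measured Hox genes none passed, and Hoxa9 read 1583 and 1157 in LSK and 864 and 614 in CMP (adjusted p = 0.121). Of 25 imprinted genes Rian, a maternally expressed noncoding RNA, fell from 164 and 50.5 to 12.7 and 9.55, at least 3.72-fold, and lost its call without the first or second WT CMP array (adjusted p = 0.0725 and 0.139). None of the stem cell calls held throughout: without the second WT CMP array Hlf reached an adjusted p of 0.125, Procr 0.115, Esam 0.139, Fgd5 0.144 and Vcam1 0.239, and no gene of the surface list passed. Without the first WT LSK or the first WT CMP array, 1 of them did. The endothelial and stromal list, which shares the marrow niche with stem cells, had 1 fall in 19 genes, Sparc, a matrix protein, from 182 and 431 to 28.3 and 46.4, and 7 of its genes were at or below the floor in both populations. The call of Sparc was lost without the second WT LSK array or without the first or second WT CMP array (up to 0.174).

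Fgd5 is printed because it is a stem cell gene that fell and its promoter holds AGAGGAAG, the letters bound by PU.1, a factor of myeloid and lymphoid progenitors. The window is chr6:91978715-91978964 on the plus strand (RefSeq, GRCm38.p6), and the capitals mark the match on the opposite strand at -186.
Fgd5: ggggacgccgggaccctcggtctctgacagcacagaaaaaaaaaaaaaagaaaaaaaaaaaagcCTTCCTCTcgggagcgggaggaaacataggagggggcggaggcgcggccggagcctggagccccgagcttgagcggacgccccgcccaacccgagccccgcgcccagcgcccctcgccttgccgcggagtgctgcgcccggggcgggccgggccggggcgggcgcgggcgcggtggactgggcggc
Searched on both strands, the PU.1 letters were in 4 of 104 promoters of lower genes (3.85%), in 2 of 43 of higher genes (4.65%) and in 648 of 14452 of all genes (4.48%), so the shares were close to each other.

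Antigen presentation and interferon genes also fell in part. Of 10 measured MHC class II genes 3 fell, with a median of -1.01, while 0.792% of all genes fell. Cd74, the invariant chain that guides class II molecules, read 503 and 1571 in LSK and 56.1 and 65 in CMP, a 14.7-fold fall (-3.88 ± 0.52, adjusted p = 0.014, limma). H2-Aa and H2-Eb1, chains of the class II molecules themselves, fell 6.25-fold, from 454 and 723 to 65.4 and 128, and 10.5-fold, from 199 and 733 to 41.6 and 31.7. The second LSK array was the highest for all 3, and every CMP array was lower than both. Ciita, the master regulator of the class, was near the floor, at 19.6 and 19.5 in LSK and 23.4 and 21.2 in CMP. Without the first WT CMP array none of the 3 passed (adjusted p = 0.0673 for Cd74 and H2-Aa and 0.0978 for H2-Eb1), and without the second only H2-Aa did. Of 10 class I and antigen processing genes none passed.

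Of 33 interferon-stimulated genes 25 were lower in CMP, as were 8095 of all 18193 genes, and the list median was -0.65. Of the 33, 2 fell, while 0.792% of all genes did. Iigp1, an interferon-inducible GTPase, fell at least 25.9-fold, from 841 and 474 to 12.8 and 25.4, with both CMP arrays under the floor. Ifit3, an antiviral protein, fell 2.05-fold, from 65 and 93 to 38.7 and 37 (adjusted p = 0.049). The count of 2 was reached in none of the 14 omissions, which gave 0 or 1. Neither call held without the first or second WT CMP array (Iigp1 at 0.127 and 0.089, Ifit3 at 0.155 and 0.227). Iigp1 was also lost without the first WT LSK array (0.0995) and passed in 9 of the 14 omissions. Ifit3 passed in 1, without the first WT LSK array, and was lost under quantile normalization (0.0602).

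Of the genes that rose, 7 were on the primary granule list and 6 on the monocyte list. Of 18 measured primary granule genes and their early companions 7 rose and none fell, while 0.341% of all genes rose. In CMP 14 were higher, as were 10098 of all 18193 genes, and the list median was 0.69. Ctsg, the granule protease cathepsin G, read 2226 and 3491 in LSK, 8175 and 7798 in CMP, and 11227 and 11109 in GMP. The 3 populations did not overlap, and the first step was a 2.86-fold rise (1.52 ± 0.20, adjusted p = 0.014, limma). Elane, neutrophil elastase, rose 2.25-fold, from 1279 and 1158 to 2821 and 2660, and read 7528 and 7634 in GMP (1.17 ± 0.16, adjusted p = 0.0164, limma). Mpo, myeloperoxidase, rose 1.56-fold, from 6472 and 7049 to 10550 and 10479, and read 12628 and 12139 in GMP (adjusted p = 0.0417). The levels of both were ordered LSK, CMP, GMP. Hp, haptoglobin, Cst7, a cystatin, and the immunoglobulin-like Igsf6 and the Toll-receptor partner Ly86 were the other 4 that rose. Ly86 read 307 and 416 in LSK and 2421 and 2473 in CMP, a 6.85-fold rise (2.78 ± 0.31, adjusted p = 0.00686, limma). The serine protease Prtn3 read 1591 and 2479 in LSK and 4360 and 4101 in CMP without passing (1.09 ± 0.26, adjusted p = 0.131). The list summed to 47060 and 49550 in LSK, 70800 and 70890 in CMP, and 102600 and 104700 in GMP.

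The count of this list, of granule genes and early companions such as the Toll-receptor partner Ly86, depended on single arrays. Without the first or the second WT CMP array 1 of the 7, Ly86, still passed. Ctsg was then at an adjusted p of 0.0673 and 0.0766, Elane at 0.0824 and 0.0858, and Mpo at 0.162 and 0.188 (it passed in 3 of the 14 omissions), although the differences themselves stayed near their values. The late granule genes of maturing neutrophils did not join: of 15 measured none passed and the median was -0.49. In CMP 11 of them were lower without overlap, as were 17.6% of all genes.

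Mpo and Ctsg are printed as the 2 of 43 promoters of higher genes that hold the PU.1 letters AGAGGAAG, in capitals. Their windows are chr11:87793534-87793783 on the plus strand, with matches at -248 and -225, and chr14:56102575-56102824 on the minus strand, with a match at -217 (RefSeq, GRCm38.p6).
Mpo: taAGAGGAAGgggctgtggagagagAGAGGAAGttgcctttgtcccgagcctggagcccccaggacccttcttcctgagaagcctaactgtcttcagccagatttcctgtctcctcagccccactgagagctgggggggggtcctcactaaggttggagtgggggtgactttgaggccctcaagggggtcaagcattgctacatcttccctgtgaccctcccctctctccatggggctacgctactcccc
Ctsg: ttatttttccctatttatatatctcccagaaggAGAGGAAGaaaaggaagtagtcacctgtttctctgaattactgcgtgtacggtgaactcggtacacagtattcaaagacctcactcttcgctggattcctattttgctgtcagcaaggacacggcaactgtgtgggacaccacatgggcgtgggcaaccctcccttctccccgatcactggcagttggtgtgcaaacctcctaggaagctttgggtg
The C/EBP letters TTGCNNCAA, read by the granulocyte factor C/EBP alpha and its relatives, were in 0 of the 43, in 3 of 104 promoters of lower genes (2.88%) and in 248 of all (1.72%). The GATA letters AGATAA were in 7 of the 43 (16.3%), in 16 of the 104 (15.4%) and in 1270 of all (8.79%). These counts are descriptions of the windows alone.

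Monocyte, macrophage and dendritic cell genes rose beside the granule genes. Of 22 measured members 6 rose and 1 fell, while 0.341% of all genes rose and 0.792% fell. The list median was 0.62. Irf8, the transcription factor that directs progenitors to monocytes and dendritic cells, read 740 and 791 in LSK, 2572 and 2672 in CMP, and 2244 and 1958 in GMP. CMP was the highest of the 3 populations, and the step from LSK was a 3.43-fold rise (1.78 ± 0.20, adjusted p = 0.00676, limma). Ms4a6c, a membrane protein of the monocyte lineage, read 1211 and 1387 in LSK and 4158 and 4170 in CMP, a 3.21-fold rise (1.68 ± 0.12, adjusted p = 0.000711, limma). F13a1, the A chain of coagulation factor XIII and a monocyte transcript, rose 6.46-fold, from 459 and 988 to 4526 and 4183. Ccr2, the chemokine receptor of inflammatory monocytes, rose 6.34-fold, from 498 and 213 to 1992 and 2141. In all of these the CMP arrays agreed closely and lay above both LSK arrays. Cd14 and Cx3cr1 were the other 2 that rose, and Tlr4, the endotoxin receptor, fell from 634 and 541 to 118 and 228 (adjusted p = 0.0388). These were weak calls: Tlr4 passed in 3 of the 14 omissions, Cx3cr1 in 2 and Cd14 in 6, with adjusted p up to 0.132, 0.188 and 0.146. Tlr4 was lost without the first or second WT LSK array or the first WT CMP array, Cx3cr1 without any 1 of the 4 arrays compared, and Cd14 without the first WT LSK or first WT CMP array. Tlr4 also lost its call when its probe sets were averaged.

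Csf1r, the receptor for macrophage colony-stimulating factor, read 682 and 269 in LSK and 2242 and 1062 in CMP and did not pass (1.85 ± 0.75, adjusted p = 0.451). Adgre1, which encodes the macrophage antigen F4/80, was at or below the floor in both populations. The list summed to 6812 and 7558 in LSK and 18840 and 17360 in CMP. The calls of Irf8 and Ms4a6c held whichever array was left out. Those of F13a1 and Ccr2 were lost without the second WT CMP array (adjusted p = 0.0568 and 0.0652), where the list's count of rises was 3. Ms4a6c lost its call when its probe sets were averaged (adjusted p = 0.122).

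The 12 largest rises included genes on no list. Rab7b, a GTPase of late endosomes, read 88.8 and 138 in LSK and 1332 and 886 in CMP, a 9.8-fold rise (3.29 ± 0.44, adjusted p = 0.014, limma). Its other probe sets rose less, by 0.12 and 1.06 on the log2 scale, and did not pass (adjusted p = 0.945 and 0.22, limma). Clec7a, the beta-glucan receptor dectin-1, read 26.3 and 29.2 in LSK, just above the floor, and 202 and 224 in CMP, a 7.68-fold rise (2.94 ± 0.25, adjusted p = 0.00141, limma). Tifab, which restrains a Toll-receptor signal, rose 8.42-fold, from 54.5 and 139 to 742 and 725. For all 3 the CMP arrays stood several-fold above both LSK arrays, and the GMP arrays were higher still, at 2392 and 2232 for Rab7b, 311 and 433 for Clec7a, and 1194 and 2072 for Tifab. Pigo, an enzyme of GPI anchor synthesis, rose 7.97-fold, from 142 and 126 to 1133 and 997, and read 356 and 293 in GMP. Another probe set of Pigo rose by 2.90 on the log2 scale and passed (adjusted p = 0.0252, limma). Its remaining probe set rose by 0.53 and did not (adjusted p = 0.682, limma). Rab44, Igsf6, Mmp19, Lim2 and Tent5a completed the 12 largest rises with Ly86, F13a1 and Ccr2. Clec7a and Ly86 kept their calls whichever array was left out. Without the second WT CMP array Rab7b reached 0.0554, Tifab 0.121 and Pigo 0.103, and Mmp19 passed in 2 of the 14 omissions.

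**Figure D3:**
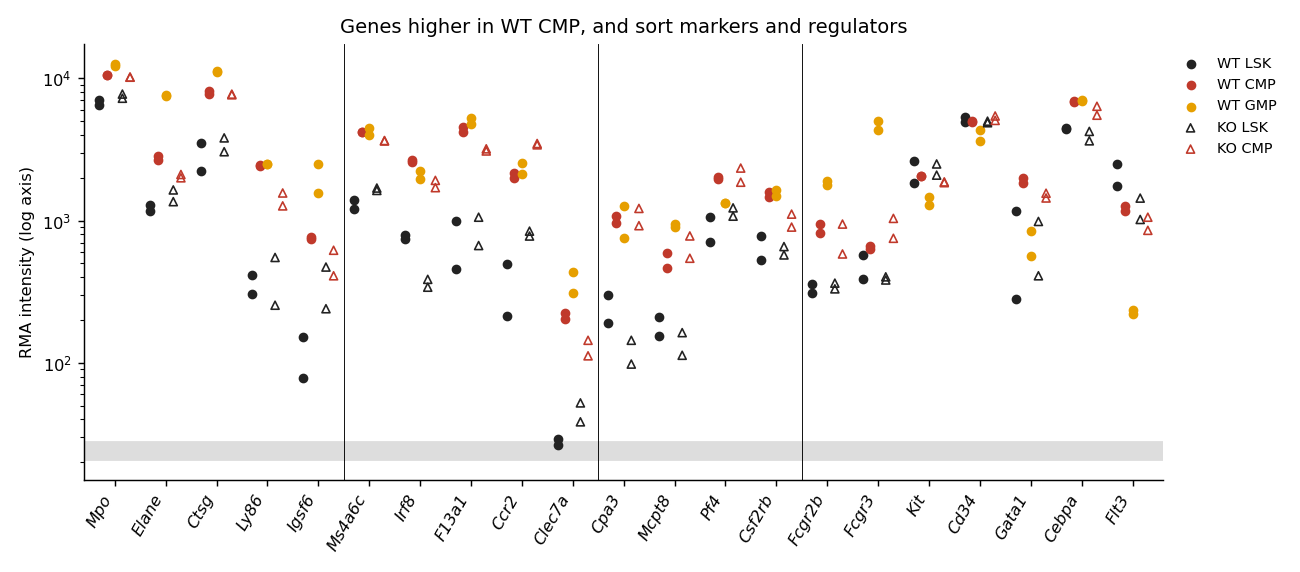
RMA intensity on a log axis of 14 genes that were higher in WT CMP, in the first 3 panels, and of Fcgr2b and 6 sort markers and regulators in the last panel, 1 point per array with the symbols WT LSK (black), WT CMP (red) and WT GMP (orange) as circles and the KO arrays as triangles. The WT CMP points lie above the WT LSK points for all 14 genes, while those of Kit and Cd34 overlap.

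Single genes of the other myeloid lineages also passed. Of 15 mast cell, basophil and eosinophil genes 2 rose, while 0.341% of all genes did. Cpa3, mast cell carboxypeptidase, rose 4.23-fold, from 191 and 301 to 962 and 1070, and Mcpt8, a basophil protease, 2.92-fold, from 154 and 209 to 588 and 464. Neither passed without the first WT LSK array or without the first or second WT CMP array (adjusted p up to 0.154 and 0.145). Of 18 megakaryocyte genes only Pf4, platelet factor 4, rose, 2.29-fold from 707 and 1058 to 1945 and 2021, with a list median of 0.27, and its call was lost without the same arrays (up to 0.168). Csf2rb, the shared beta chain of the receptors for GM-CSF, IL-3 and IL-5, was the 1 of 30 cytokine receptors that rose, 2.38-fold from 527 and 782 to 1471 and 1583, and it too was lost without those arrays (up to 0.157).

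Of 27 erythroid genes none passed, although 21 were higher in CMP, as were 10098 of all 18193 genes. The list median was 0.26, against 0.03 over all genes. Gata1, the master factor of red cells and platelets, read 283 and 1158 in LSK and 1837 and 1989 in CMP. The 2 LSK arrays lay far apart, and the difference did not pass (1.74 ± 0.60, adjusted p = 0.321, limma), but it did without the second WT LSK array (2.76, adjusted p = 0.0266). Klf1, an activator of globin genes, read 93.9 and 258 in LSK and 341 and 330 in CMP (adjusted p = 0.541). Of 10 heme synthesis genes none passed, and the late erythroid list of 9 had none either, with 4 at or below the floor in both populations.

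Most core regulators of the myeloid lineage did not pass. Of 21 myeloid regulators Irf8 rose and Irf4 fell, while 1.13% of all genes passed, and the median was 0.01. Cebpa, which encodes the granulocyte factor C/EBP alpha, read 4448 and 4398 in LSK and 6812 and 6867 in CMP. The CMP arrays were higher and close together, yet the difference missed the threshold (0.63 ± 0.14, adjusted p = 0.112, limma). Spi1, the gene of PU.1, read 157 and 175 in LSK and 282 and 205 in CMP (0.54 ± 0.18, adjusted p = 0.32). Gata2, a factor of stem and mast cell progenitors, read 6442 and 5990 in LSK and 6666 and 7621 in CMP (adjusted p = 0.739).

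No growth or division gene on the lists passed. Of 36 DNA replication genes 34 were higher in CMP, with a median of 0.21. Of 28 ribosome biogenesis genes 26 were higher, with a median of 0.28. Over all genes 10098 of 18193 were higher, and the median was 0.03, or 0.17 with signals under the floor raised to it. Mitosis genes had a median of 0.07 over 34 genes and cell cycle inhibitors and D cyclins -0.07 over 21, with none past the threshold. Cdt1, which licenses replication origins, read 1573 and 1030 in LSK and 2588 and 2093 in CMP (0.87 ± 0.26, adjusted p = 0.231). Cdk6, a kinase of the entry into the cycle, read 2876 and 2210 in LSK and 3761 and 4055 in CMP (0.63 ± 0.16, adjusted p = 0.156). Of 24 immediate early genes, 23 of hypoxia and glycolysis and 18 of DNA methylation none passed, and of 30 TGF-beta, Notch and Wnt genes Lef1 alone did.

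**Figure D4:**
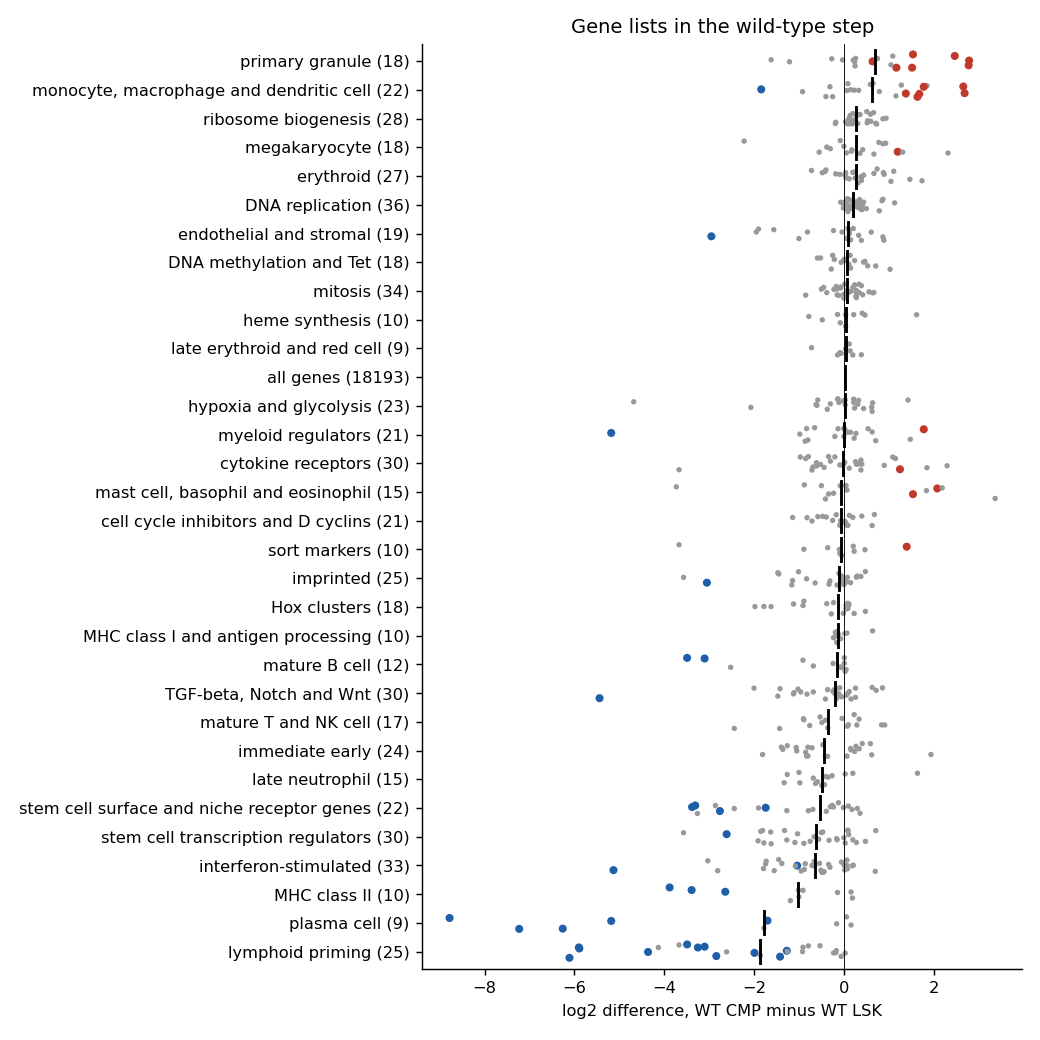
The log2 difference, WT CMP minus WT LSK, of every measured member of 31 gene lists, with the number of members in brackets, the list median as a black bar, and genes past the threshold in red (higher in CMP) or blue (lower). Lists are ordered by median, from 0.69 for primary granule genes to -1.86 for lymphoid priming genes, and the median of all genes was 0.03.

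The GMP arrays gave values further along the same branch. Of the 62 genes that rose, 61 had a higher level in GMP than in LSK, and 35 were higher in GMP than in CMP. Of the 144 that fell, 143 were lower in GMP than in LSK and 88 lower than in CMP. Over all 18193 genes, 10745 were higher in GMP than in LSK and 8154 were lower in GMP than in CMP. The calls used the LSK and CMP arrays, so the comparison of GMP with LSK or CMP shares arrays with them and is given without a test. Vcam1 was the gene whose GMP level lay above LSK after a fall to CMP. Jchain read 32.2 and 561 in GMP, with the second array far above the first.

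The same step was read in the KO arrays, none of which enters the wild-type difference. There 136 genes (0.748%) passed, 46 up (0.253%) and 90 down (0.495%). By probe set the counts were 265 (0.588%), 92 up (0.204%) and 173 down (0.384%). Of the 206 wild-type genes 193 had the same sign in KO, 58 of 62 up and 135 of 144 down, against 60.5% of all genes. Of the wild-type genes 17 rises and 46 falls also passed in KO, which is 30.6% of the wild-type calls and 46.3% of the KO calls. The median difference of the rises was 1.70 in wild type and 0.90 in KO, and that of the falls -2.64 and -1.62. Since the genes were chosen on their wild-type values, the smaller KO medians are no test of a difference.

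The difference of the step between genotypes was tested directly, and no probe set passed in limma (0.0%), while 2958 of 45037 had an unadjusted p below 0.05. The smallest adjusted p was 0.0612, shared by Mzb1, Trgv1, Ecscr and Pou2af1. Pou2af1 read 677 and 925 in KO LSK and 232 and 391 in KO CMP, a step of -1.39 against -7.23 in wild type (difference 5.83 ± 0.66). Mzb1 read 317 and 213 in KO LSK and 38.6 and 29 in KO CMP, a step of -2.95 against -6.26. The KO LSK arrays were lower and the KO CMP arrays higher than their wild-type counterparts for both. Both WT CMP arrays of each gene were under the floor, so the sizes of the wild-type steps and of the differences are uncertain. Igkv15-103 fell in both genotypes, with -6.93 in KO, where both CMP arrays were again under the floor. Ighm also fell in both, with -3.79 in KO. Jchain read 5057 and 5766 in KO LSK and 457 and 514 in KO CMP, a step of -3.48 that did not pass (adjusted p = 0.235, limma). Of the rises, Irf8 stepped up by 2.32 in KO and Cpa3 by 3.15, both past the threshold, while Pigo was at -0.51 in KO and 2.99 in wild type. Its test of the difference gave an adjusted p of 0.214. Vcam1 fell by 4.34 on the log2 scale in KO and by 1.74 in wild type, with an adjusted p of 0.186 for the difference. Both KO CMP arrays of Vcam1, at 19.1 and 12.1, were under the floor, so the size of its KO fall is uncertain. When genes were adjusted over 1 probe set each, 4 passed the test of the difference: Mzb1, Pou2af1, Trgv1 and Ecscr.

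**Figure D5:**
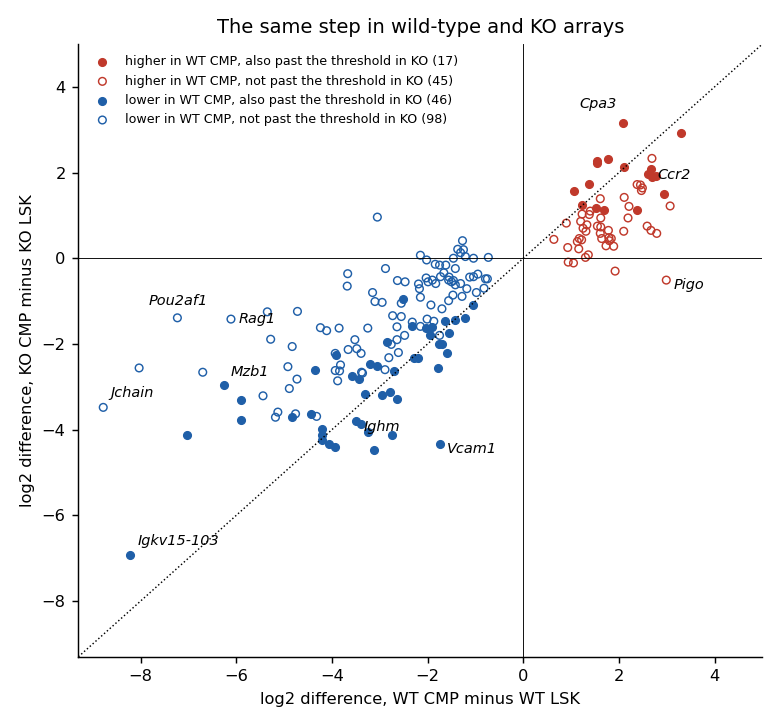
The log2 difference from LSK to CMP in wild type (x axis) and in KO (y axis) for the 206 genes past the threshold in wild type, filled where the gene also passed in KO. The dotted line marks equal steps; Pou2af1, Rag1 and Jchain lie far above it, and Igkv15-103 and Ighm lie near it.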

How the data were processed

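Total RNA was amplified and hybridised to Affymetrix Mouse 430 2.0 arrays, per the labels' protocols. The deposited table holds RMA values, per the submitters' processing notes: the authors' background-corrected, normalized intensity per probe set on a linear scale. No source used here names the software or its version. Log2 was taken, 64 control probe sets were left out, and limma 3.58.1 (R 4.3.3) fitted 7 group means over 14 arrays, 2 a group, with Benjamini-Hochberg adjustment over 45037 probe sets. The number of arrays limits the precision. GEO's platform annotation gave 1 gene for 34945 probe sets, several for 932, and none for 9160; 34741 matched RefSeq GRCm38.p6. The fit was tested on simulated data. The members and lists were chosen with earlier results of these data known. Named genes are the 12 largest rises and falls past the threshold with groups apart and the brighter above the floor (clone names left out), up to 4 per list by p, or 2 where none passed, and fixed sort and lineage markers. Other list members were named after their values were seen. The alternatives were a replicate block, fewer arrays, other normalizations, a pseudocount of 16, a filter on dim probe sets, other choices of probe set, an intensity trend, array weights and leaving out each array. Same-numbered arrays shared little deviation from their group means (correlations between -0.078 and 0.075). With 2 arrays a group this cannot settle whether the numbers pair samples, and the main fit used no pairing.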

Additional observations from a re-analysis of the deposited data

How the results depend on the processing

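Settings chosen for comparison changed the counts as follows. Leaving out each array in turn gave 122 to 917 wild-type probe sets instead of 367, 12 to 159 rising genes instead of 62 and 40 to 267 falling genes instead of 144. The lowest counts were without the second WT CMP array and the highest without the second WT LSK array. The same omissions gave 100 to 653 probe sets for the KO step instead of 265, and 0 to 180 for the difference between genotypes instead of 0. With the 12 sorted arrays alone, wild type gave 187 probe sets, 26 rises and 82 falls, and KO 100 probe sets. With the spread of the groups compared alone, wild type gave 12 probe sets (3818 at an unadjusted p below 0.05), 0 rises and 9 falls. KO then gave 0 in limma (3312 at an unadjusted p below 0.05) and the difference between genotypes 1. Array weights gave 66 probe sets for KO. The mean of all probe sets of a gene gave 103 rises. Adjusting over 1 probe set per gene gave 209 genes for KO instead of 136, and 4 genes for the difference. A pseudocount of 16 gave 10 probe sets for the difference. A replicate block gave 303 probe sets for wild type, 231 for KO and 0 for the difference, all within 1.5 times. Epb42, at or below the floor in both populations, moved from 0.20 to -1.02 when its probe sets were averaged. The causes of these shifts were not tested, beyond the fewer arrays of some settings. Of the other probe sets of named called genes, 34 were above the floor in a group and all 34 had the same sign. Of these, 23 had an unadjusted p below 0.05 in limma, and some barely moved, such as those of Sdc1 (-0.07) and Sparc (-0.09). The count leaves out other called genes. Some of the called genes left out had another probe set that moved the other way. Sh3pxd2b, which rose, had one at -0.80 (unadjusted p = 0.166, limma). Tlr4, Cd82, Csrnp1, Entpd5 and Tulp3, which fell, each had one that was slightly higher in CMP. These were at 0.17, 0.12, 0.16, 0.12 and 0.17 (unadjusted p = 0.893, 0.609, 0.383, 0.555 and 0.311, limma). Pooling the spread over 7 groups assumes that WT LSK arrays vary like the rest, while their array weight was 0.678 against 1.27 for WT CMP. Signals under the floor give bounds only.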

Other observations

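Some members of a few gene families fell from LSK to CMP, the kappa genes described above among them. The families were chosen after their values were seen and carry no test as families. Of 8 measured Gimap genes, small GTPases of lymphocytes, all 8 were lower in CMP with a median of -2.54, and Gimap3, Gimap6, Gimap7 and Gimap8 fell. Of 6 Gbp genes, interferon-inducible GTPases, Gbp6 and Gbp8 fell and 1 was higher in CMP. Of 9 T cell receptor segments Trbv1 and Trgv1 fell, but 3 were higher in CMP and the median was -0.11. Of 15 kappa genes and segments 4 fell, and 8 were at or below the floor in both populations.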
